A study of Mus musculus with 56 samples.

Results

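TGF-β signalling was examined through 10 genes, the ligands Tgfb1 and Tgfb3, the receptors Tgfbr1 and Tgfbr2, the signal transducers Smad2, Smad3 and Smad4, the inhibitory Smad7 and the repressors Ski and Skil. They were chosen by name for their role in the pathway and make up 10 of the 47937 genes listed. The starting cells were naive CD4+ T cells, obtained by negative selection from the spleen and lymph nodes of C57BL/6 mice. They were activated with antibodies to CD3 and CD28 and IL-2. RNA was sequenced after 4 days of polarization into TH1, TH2, TH17 or Treg cells. TH1 cultures received IL-12, further IL-2 and an antibody to IL-4, and TH2 cultures received IL-4, further IL-2 and an antibody to IFN-γ. For TH17 cultures no further IL-2 is listed. TH17 cultures received TGF-β at 5 ng/mL with IL-6, IL-1 and antibodies to IFN-γ and IL-4, and Treg cultures received TGF-β at 10 ng/mL with IL-2 and the same antibodies. Mice carried loxP-flanked Odc or loxP-flanked Dohh, and Cre driven by the CD4 promoter defined the Odc-/- and Dohh-/- cells. Their WT controls lacked Cre and were age- and sex-matched littermates. CD4-Cre acts in T cells that express CD4, including developing cells in the thymus, so the mice lived with the deletion before culture. The Odc table held 4 WT and 4 Odc-/- libraries per subset, except 3 Odc-/- libraries in TH2, where 1 further sample was not analysed here. The Dohh table held 3 WT and 3 Dohh-/- libraries per subset.

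ODC makes putrescine, the first polyamine, and DOHH completes hypusine, a polyamine-derived amino acid of the translation factor eIF5A. TGF-β is secreted in a latent form, and once released it binds the type II receptor TGFBR2, which recruits and phosphorylates the type I receptor TGFBR1. TGFBR1 phosphorylates SMAD2 and SMAD3, which join SMAD4 and enter the nucleus. SMAD7 blocks the receptor, and SKI and SKIL (SnoN) sit on SMAD complexes and silence their targets. Smad7 and Skil are known targets of the pathway and act as negative feedback. In CD4+ T cells TGF-β is needed for induced Treg and, with IL-6, for TH17 cells, and it restrains TH1 and TH2 programs.

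Libraries held 5905374 to 9145214 counts (Odc table) or 6572148 to 12576933 counts (Dohh table). All 10 genes passed the low-count filter in both tables, together with 13839 genes in the Odc and 13897 genes in the Dohh table. Subset markers were in place in WT cells, where Tbx21, Gata3 and Foxp3 had their highest means in TH1, TH2 and Treg cells, in that order. Some libraries stood apart over all genes. On a scale where the other WT libraries lie at 0 and the other libraries labelled deficient at 1, replicate 4 of Odc WT lay at 0.211 to 0.332 in the 4 subsets, Odc-/- replicate 1 at 0.53 in TH1 and 0.58 in TH17, and Dohh-/- at 0.617 for TH1 replicate 3 and 0.649 for TH17 replicate 1. For the 10 genes, calls that change without these libraries are given with and without them. No such values are given for the other genes named below. All of these libraries lie toward the other genotype, so leaving them out tends to widen differences between genotypes. Of 200 results, 29 passed only without them, 1 passed with a changed sign and 0 were lost. Passes gained in this way are not independent support. Counts of the deleted genes did not fall with the labels. Odc1 changed in Odc-/- cells only in TH17 (log2 difference -0.40, adjusted p = 0.042). Dohh was higher in Dohh-/- TH1, TH2 and Treg cells (1.43, 1.10 and 1.15). It was higher in Odc-/- TH1, TH2, TH17 and Treg cells too (1.26, 1.17, 0.63 and 1.11), so the rise was not particular to the Dohh deletion. Another gene on the same strand overlaps 47.5% of the exon length of Dohh. Counts span all exons, the deleted ones and the rest, so they do not check the deletion. In activated cells the paper reports ODC lost by immunoblot and polyamines reduced with Odc deletion. It also reports less hypusinated eIF5A with Dohh deletion. Odc-/- and Dohh-/- stand below for what the libraries are labelled as. Markers of other cells moved with the labels. The summed level of 6 basophil and mast cell markers was 43.3 to 1117.9 CPM in Dohh-/- and 1.22 to 3.32 in Dohh WT libraries, and 11 to 298.2 in Odc-/- and 1.24 to 15.3 in Odc WT libraries. For 6 myeloid markers, of which Itgam was at 0 throughout the Dohh table, it was 2.66 to 4623.7 in Dohh-/- and 0.634 to 21.0 in WT. For 6 platelet markers it was 49.8 to 669.2 against 4.88 to 12. The 5 T cell markers summed to 974.2 to 2077.2 CPM in Dohh-/- and 2018.2 to 2656.7 in WT libraries, and to 1223.3 to 2348.8 in Odc-/- and 1567.5 to 2970.0 in Odc WT libraries. The 5 CD8 T and NK cell markers summed to 48.5 to 564.3 against 23.1 to 122.0 in the Dohh table and to 13.6 to 365.3 against 16.6 to 160.9 in the Odc table. Within subsets their ranges overlapped only in TH1 and TH2 cells of the Odc table. In Treg cells they were 480.2 to 564.3 against 40.3 to 57.5 (Dohh table) and 240.6 to 365.3 against 35.6 to 58.8 (Odc table). The 5 B cell markers reached 485.8 CPM in Odc-/- and 91.8 in Odc WT libraries, and 5 fibroblast markers stayed at or below 7.13 with Col3a1 at 0 throughout. Their part in the results below was not tested, and in bulk RNA fewer cells of a type cannot be told apart from less RNA per cell.

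Of the 10 genes, 5 had a promoter window of 300 bases (6 windows in all) in the RefSeq table for GRCm38.p6, each running from 250 bases before to 50 bases after a start site in that table. Windows of 3 genes are printed, those of the receptors, which were higher in the TGF-β cultures of WT cells, and that of Smad3, which fell in every comparison with a deletion. Capitals mark matches to the SMAD-binding element, whose letters are CAGAC and on the other strand GTCTG, or to the GC-rich SMAD motif, whose letters are GGCGC and on the other strand GCGCC. The windows are chr4:47352972-47353271 on the plus strand for Tgfbr1, chr9:116175314-116175613 on the minus strand for Tgfbr2 and chr9:63757945-63758244 on the minus strand for Smad3, each printed 5′ to 3′ along its gene.
Tgfbr1: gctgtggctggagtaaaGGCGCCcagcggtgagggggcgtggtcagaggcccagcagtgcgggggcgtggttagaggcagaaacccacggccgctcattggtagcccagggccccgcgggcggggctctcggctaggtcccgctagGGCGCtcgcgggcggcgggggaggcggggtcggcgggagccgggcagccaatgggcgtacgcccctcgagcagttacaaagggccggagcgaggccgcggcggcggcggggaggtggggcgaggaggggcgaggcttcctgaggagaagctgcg
Tgfbr2: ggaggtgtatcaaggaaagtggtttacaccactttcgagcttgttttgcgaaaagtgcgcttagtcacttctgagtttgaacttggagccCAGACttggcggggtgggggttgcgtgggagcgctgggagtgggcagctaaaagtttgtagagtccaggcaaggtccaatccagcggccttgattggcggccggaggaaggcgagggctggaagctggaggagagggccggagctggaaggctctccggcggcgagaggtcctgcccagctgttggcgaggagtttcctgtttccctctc
Smad3: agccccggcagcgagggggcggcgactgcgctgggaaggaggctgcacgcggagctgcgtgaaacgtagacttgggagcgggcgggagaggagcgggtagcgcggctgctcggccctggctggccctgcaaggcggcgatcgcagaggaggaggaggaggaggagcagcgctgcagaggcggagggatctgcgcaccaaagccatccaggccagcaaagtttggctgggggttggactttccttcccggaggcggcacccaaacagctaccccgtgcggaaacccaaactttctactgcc
The Tgfbr1 window shown held 3 GGCGC matches and no CAGAC, with 74.7% G and C. A second window listed for Tgfbr1, at chr4:47385966-47386265 on the plus strand, inside the gene, and not printed, held the opposite, 1 CAGAC match and no GGCGC, with 52% G and C. The Tgfbr2 window held 1 CAGAC match, and the Smad3 window neither motif. Among 32817 windows of the same length in the table, 49.6% held CAGAC and 36.8% held GGCGC. A match is a string of letters and not a measured binding site. The Tgfb1 window held 2 GGCGC matches and the Ski window 7, in 85.3% G and C.

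In WT cells the levels of the pathway followed the culture. Compared with TH1 and TH2 cells, TH17 and Treg cells had more mRNA for both receptors, for Smad2, Smad4 and Smad7 and for both repressors, and less for Tgfb3. In the Odc table, 7 of the 10 genes were higher and 1 lower in the TGF-β cultures (edgeR quasi-likelihood fit, p-values adjusted by Benjamini-Hochberg), where 28.8% of all tested genes were higher and 28.3% lower. In the Dohh table the counts were again 7 and 1, against 17.1% and 18.7% of all genes. Other cytokines differ between these cultures too, so the contrast is one of cultures and not of TGF-β alone.

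Tgfbr1, the kinase that passes the signal to SMADs, had the widest rise in Odc WT cells. Its levels were 17.3, 17.1, 11.9 and 8.29 CPM in TH1, 31.3, 30.3, 27.3 and 24.9 in TH2, 55.1, 47.3, 45.7 and 58.6 in TH17, and 157, 144, 128 and 202 in Treg cells. The 4 subsets did not overlap and rose in that order, and the log2 difference between TGF-β and other cultures was 2.19 ± 0.18 (SE, adjusted p = 1.2e-10). In Dohh WT cells the difference was 1.21 ± 0.23 (adjusted p = 0.00028), with Treg cells again highest at 77.4, 50.2 and 74.9 CPM and TH17 cells at 29.8, 23.8 and 28.1, which overlapped TH2 cells at 20.1, 23.2 and 29.0.

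The repressors rose with it. Skil was 61.2 to 86.0 CPM in Odc WT TH1 and 56.7 to 76.9 in TH2 cells, and 169 to 235 in TH17 and 255 to 332 in Treg cells. That gave a difference of 1.81 ± 0.12 (adjusted p = 5.8e-13), and of 2.07 ± 0.24 (adjusted p = 4.4e-07) in the Dohh table. Ski rose by 1.23 ± 0.11 (adjusted p = 3.8e-10) and 0.83 ± 0.13 (adjusted p = 3.4e-05). It was highest in TH17 cells of the Odc table (259.8 to 276 CPM) but in Treg cells of the Dohh table (208 to 248), so the order of those subsets was not shared.

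Among the other genes higher in the TGF-β cultures, Tgfbr2 differed by 0.73 and 1.22 (Odc and Dohh tables), Smad7 by 0.65 and 1.29, Smad2 by 0.58 and 0.41 and Smad4 by 0.38 and 0.43. With Treg cells alone set against TH1 and TH2 cells, Smad4 did not pass in the Dohh table (0.33, adjusted p = 0.13). Tgfb3 was the gene that was lower, by 1.36 on the log2 scale in the Odc and 0.75 in the Dohh table (log2 differences -1.36, adjusted p = 0.037, and -0.75, adjusted p = 0.029). Both calls depend on single libraries, since leaving out any of 8 WT libraries of the Odc table (adjusted p up to 0.073) or any of 8 of the Dohh table (up to 0.084) ended them. Without a filter on low counts neither Tgfb3 call passed (adjusted p = 0.074 and 0.068), nor did that of the Odc table with DESeq2 (0.052). Tgfb1 (0.12 and 0.30) and Smad3 (0.13 and 0.19) did not pass the test. Tgfb1 passed in the Odc table with a block for the libraries of 1 genotype and replicate number (0.12, adjusted p = 0.045). This block is called the donor block below, although the labels do not say that a number marks 1 mouse. In the Dohh table Tgfb1 passed with DESeq2 (0.30, adjusted p = 0.042), with a replicate block (0.31, 0.047) and without the libraries that stood apart (0.30, 0.032). Set against TH1 and TH2 alone, WT Treg cells had more Tgfb1 in both tables (0.32, adjusted p = 0.00098, and 0.61, 0.0035). For Smad3 the 2 TGF-β cultures lay on opposite sides. TH17 cells had the most (212, 209, 204 and 141 CPM) and Treg cells the least (47.4, 45.8, 49.1 and 39.9), with TH1 cells at 64.3 to 101 and TH2 cells at 63.6 to 98.2. Set against TH1 and TH2 alone, Odc WT Treg cells had a Smad3 difference of -0.91 (adjusted p = 2e-05).

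Levels per kilobase of exon allow genes to be ranked. In Odc WT TH1 cells Tgfb3 stood at 57.5 ± 25.4 CPM per kb (SD, n = 4) and Tgfb1 at 51.4 ± 2.78, which do not differ beyond their spread. Smad4 (17.7 ± 1.53), Ski (16.3 ± 1.65) and Smad3 (15.9 ± 2.95) followed at like levels, and Smad2 (3.22 ± 0.524) and Tgfbr1 (2.09 ± 0.668) were lowest. In Odc WT Treg cells Tgfbr1 stood higher, at 24.1 ± 4.89, within the spread of Skil (30.1 ± 3.25) and Smad4 (20.4 ± 0.76). Tgfb3 was at 10.6 ± 7.27 in those cells. Tgfb1 led there at 52.7 ± 6.09, whereas in TH17 cells Ski (48.2 ± 1.19) lay above Tgfb1 (40.1 ± 5.58). In the Dohh WT groups Tgfb1 led the 10 genes in every subset, from 44.9 ± 8.97 (n = 3) in TH2 to 79.1 ± 2.29 in Treg cells.

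**Figure D1:**
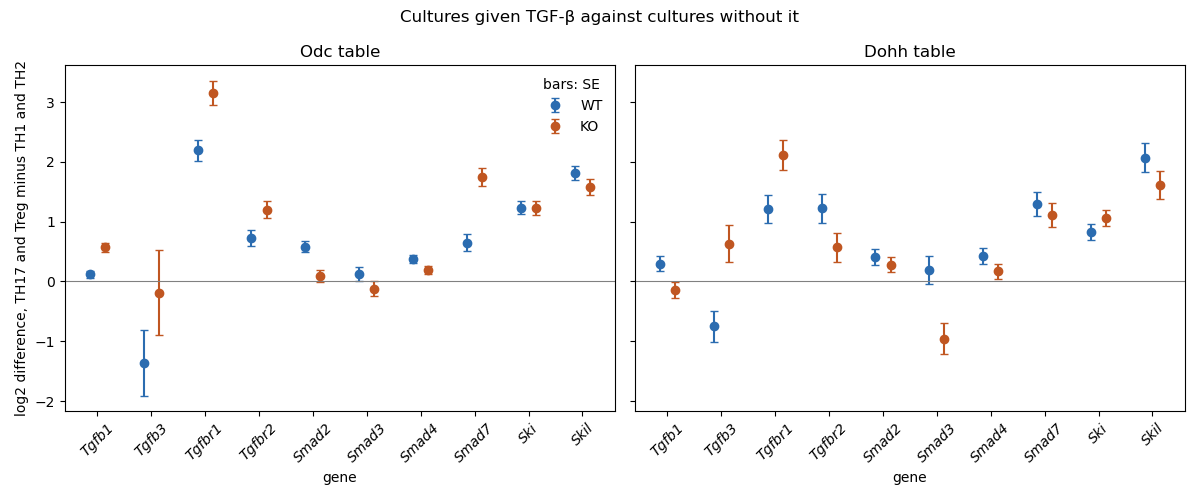
Log2 difference between the TGF-β cultures (TH17 and Treg) and the other cultures (TH1 and TH2) for each of the 10 genes, with bars of ± 1 SE, in WT and deficient cells of the Odc and Dohh tables. Tgfbr1, Skil and Ski lie above 0 in all 4 groups, and Tgfb3 lies at -1.36 and -0.75 in WT cells.

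Without Odc or Dohh more of the 10 genes fell than rose, except in Odc-/- Treg cells, where 3 rose and 2 fell. The number that changed in either direction lay near the share of all genes in most comparisons. In Odc-/- cells changes over 2-fold lay below that share. Smad3 and Smad4 were lower in all 4 subsets of both tables and Tgfb3 in 3 of 4 subsets of each, while Tgfb1 and Smad2 were the genes that rose in Odc-/- cells along with Tgfbr1 and Ski. With Odc deletion 1 gene rose and 5 fell in TH1 (29.1% and 27.7% of all tested genes rose and fell), 2 rose and 5 fell in TH2 (29.9% and 29.3%), 2 rose and 4 fell in TH17 (25.6% and 22.2%), and 3 rose and 2 fell in Treg cells (32.9% and 26.9%). Changes over 2-fold were fewer. They were met by Tgfb3 alone in TH1, TH2 and TH17 and by no member in Treg cells, where 21.4%, 25.1%, 15.6% and 24.0% of all genes met them. Leaving out the libraries that stood apart added Smad7 in TH1 (-1.23 ± 0.23, adjusted p = 6.5e-05), Smad3 (-1.29 ± 0.11, 1.8e-09) and Tgfbr1 (1.08 ± 0.27, 0.0021) in TH17, and Tgfb3 in Treg cells. With Dohh deletion none rose and 5 fell in TH1 (25.9% and 24.1% of all genes), 1 rose and 6 fell in TH2 (23.8% and 21.5%), none rose and 4 fell in TH17 (27.0% and 24.9%), and none rose and 6 fell in Treg cells (28.4% and 25.0%). Over 2-fold changed 4, 4, 3 and 5 genes, against 29.1%, 25.9%, 31.4% and 32.7% of all genes. The median log2 difference of the 10 genes was -0.36, -0.37, -0.34 and 0.12 in Odc-/- TH1, TH2, TH17 and Treg cells and -0.62, -0.85, -0.64 and -0.96 in Dohh-/- cells, while the median over all genes lay within 0.07 of 0. These comparisons reuse the WT and deficient libraries of the culture contrasts.

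**Figure D2:**
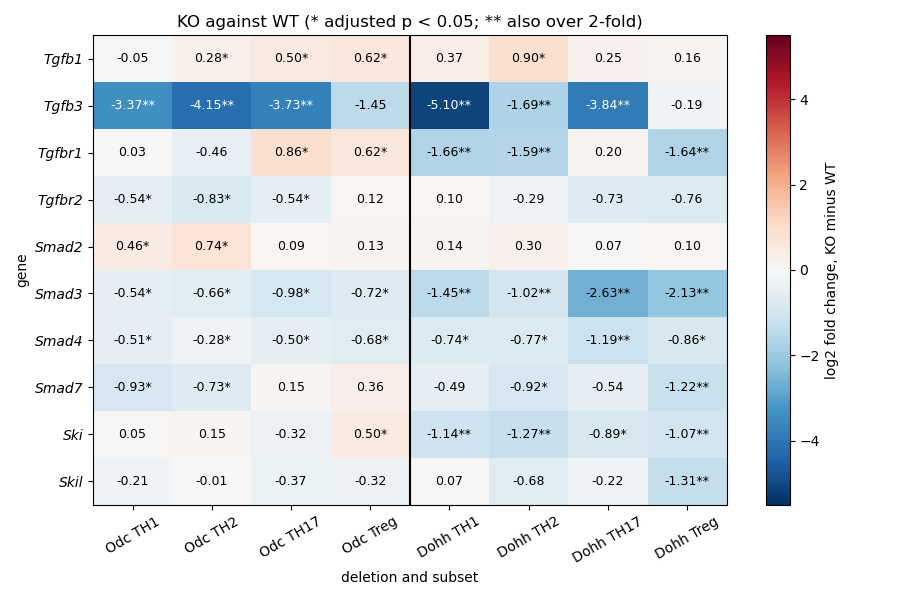
Heat map of log2 differences, deficient minus WT, for the 10 genes (rows) in each subset of the Odc and Dohh tables (columns), with 1 star for an adjusted p under 0.05 and 2 stars for a change that is also over 2-fold. Tgfb3 has the deepest values, down to -5.10 in Dohh-/- TH1 cells, and Smad3 and Smad4 carry stars in all 8 columns.

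Tgfb3, which encodes a TGF-β ligand known from TH17 cells, had the largest losses among the 10 genes outside Treg cells. In Odc WT TH1 cells it was at 256, 190.0, 258 and 74.9 CPM, and in Odc-/- TH1 cells at 70.2, 0.397, 3.52 and 2.24. The high Odc-/- value belongs to replicate 1 and the low WT value to replicate 4, 2 libraries that stood apart over all genes, and even these did not overlap. The lowest value rests on 3 counts. The log2 difference was -3.37 ± 0.85 (adjusted p = 0.0018, 10.4-fold lower) with all libraries and -6.59 ± 0.85 (adjusted p = 1e-06) without that Odc-/- library. In TH2 cells WT libraries were at 105, 110.0, 108 and 62.0 and Odc-/- libraries at 2.25, 10.3 and 3.62 (log2 difference -4.15 ± 1.06, adjusted p = 0.0018). In TH17 cells they were at 93.0, 96.5, 94.2 and 33.0 and at 13.3, 2.89, 2.50 and 4.81 (-3.73 ± 0.93, adjusted p = 0.0023). None of these groups overlapped, and the TH2 value without Odc-/- replicate 3 was -5.03 and the TH17 value without Odc-/- replicate 1 was -4.51. In Treg cells they did, at 51.0, 27.0, 60.0 and 5.48 in WT and 5.15, 18.6, 14.6 and 13.9 in Odc-/- libraries, and the difference of -1.45 ± 0.84 did not pass (adjusted p = 0.14). Without all libraries that stood apart the Treg value was -1.80 ± 0.36 (adjusted p = 0.00022) and the TH1 value -6.85 ± 0.51.

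In the Dohh table Tgfb3 was at 73.8, 47.4 and 64.9 CPM in WT and 1.12, 0.789 and 3.31 in Dohh-/- TH1 cells, a difference of -5.10 ± 0.47 (adjusted p = 6.1e-08, 34.4-fold lower) and of -5.96 without replicate 3 of Dohh-/-. In TH17 cells it was at 51.3, 40.7 and 55.6 in WT and 3.25, 3.05 and 4.08 in Dohh-/- libraries (-3.84 ± 0.43, adjusted p = 6.9e-07). In TH2 cells it went from 33.7, 27.5 and 31.3 to 17.0, 8.46 and 3.07 (-1.69 ± 0.39, adjusted p = 0.0015), and without Dohh-/- replicate 1 this was -2.45. With only those 2 groups in the fit the TH2 call was lost (-1.71, adjusted p = 0.054). In Treg cells WT (13.5, 15.4 and 12.3) and Dohh-/- libraries (9.50, 14.3 and 12.3) overlapped, with a difference of -0.19 ± 0.38 (adjusted p = 0.70). The Tgfb3 gene lies on chromosome 12 (86056745 to 86079041, minus strand, GRCm38), and 12.4% of its exon length is overlapped by genes on the other strand. The kit marks strand but the strand setting of the counting is not given in the sources used here.

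Tgfb1, the other ligand examined, moved in the opposite direction. In Odc-/- cells it rose by 0.28 ± 0.10 in TH2 (adjusted p = 0.016), 0.50 ± 0.09 in TH17 (0.00011) and 0.62 ± 0.09 in Treg cells (2.7e-06) on the log2 scale. The Treg libraries went from 247, 244, 263 and 310.1 CPM in WT to 446, 379.5, 381 and 426 in Odc-/- cells, without overlap. In TH1 cells the values overlapped, with a difference of -0.05. The TH2 call was lost without Odc-/- replicate 4 (0.21, adjusted p = 0.11) or WT replicate 2 (0.22, adjusted p = 0.084) and without a filter on low counts (0.24, adjusted p = 0.098). In the Dohh table Tgfb1 rose in TH2 cells, from 274, 222 and 183 to 417, 380.2 and 473 CPM (0.90 ± 0.18, adjusted p = 0.00045), and its differences in TH1, TH17 and Treg cells were 0.37, 0.25 and 0.16 and did not pass. The TH1 difference passed with DESeq2 (0.41, adjusted p = 0.041) and without the libraries that stood apart (0.45, adjusted p = 0.029). Platelets and myeloid cells also make Tgfb1, although the negative selection of naive CD4+ T cells before culture is meant to remove them. Platelet markers summed to 76.0 to 175.9 CPM in Dohh-/- and 7.85 to 12 in WT TH2 cells, and myeloid markers to 94.1 to 342.5 in Odc-/- and 17.8 to 35.3 in WT Treg cells, and their part in the rise of Tgfb1 was not tested.

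**Figure D3:**
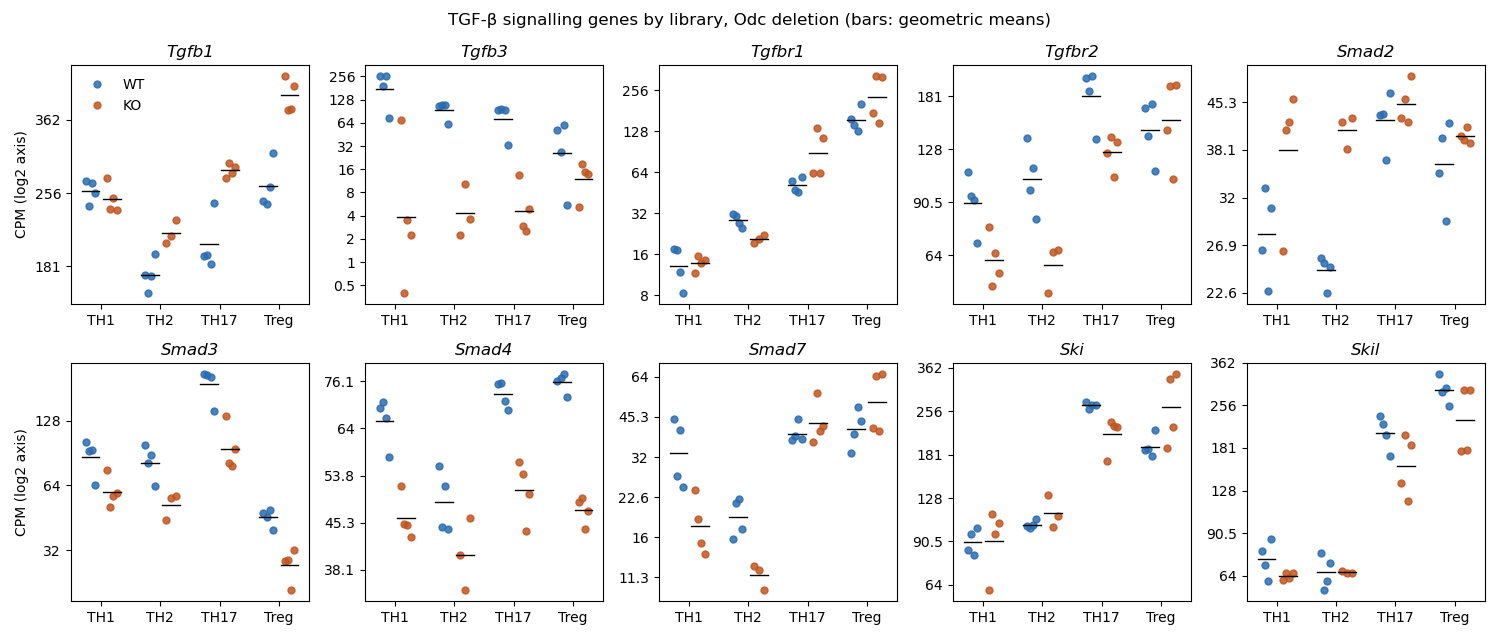
Level of each of the 10 genes in every library of the Odc table, in CPM on a log2 axis, by subset, with WT libraries in blue, Odc-/- libraries in orange and bars at the geometric means. Tgfb3 runs from 0.397 to 258 CPM in TH1 cells, and Smad4 of Treg cells from 44.3 to 49.5 in Odc-/- and from 71.8 to 78.2 in WT libraries.

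TGFBR1 and TGFBR2 form the complex that starts the signal. Tgfbr1 rose in Odc-/- TH17 cells from 55.1, 47.3, 45.7 and 58.6 CPM to 63.5, 134, 62.7 and 114, a difference of 0.86 ± 0.24 (adjusted p = 0.0054). In Treg cells it went from 157, 144, 128 and 202 to 174, 325, 147 and 322 (0.62 ± 0.24, adjusted p = 0.026). In both cultures replicates 2 and 4 of Odc-/- were far above replicates 1 and 3, and in Treg cells replicates 1 and 3 overlapped WT. Leaving out any 1 of 4 Treg libraries ended the Treg call, with adjusted p of 0.063 without WT replicate 2, 0.082 without WT replicate 3 and 0.12 without Odc-/- replicate 2 or 4. It was also lost without a filter on low counts (adjusted p = 0.098) and with only the 2 groups in the fit (0.079). In TH1 and TH2 cells the Tgfbr1 differences were 0.03 and -0.46 (adjusted p = 0.95 and 0.16), and with only the 2 groups the TH2 value passed (-0.48, adjusted p = 0.0055).

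In Dohh-/- cells Tgfbr1 fell in 3 subsets, by 3.01- to 3.17-fold. It was at 17.3, 13.8 and 11.7 CPM in WT and 4.39, 2.37 and 6.51 in Dohh-/- TH1 cells (-1.66 ± 0.36, adjusted p = 0.00073). In TH2 cells it was at 20.1, 23.2 and 29.0 and at 9.34, 8.56 and 6.04 (-1.59 ± 0.34, adjusted p = 0.00084), and in Treg cells at 77.4, 50.2 and 74.9 and at 14.0, 26.4 and 24.7 (-1.64 ± 0.33, adjusted p = 0.00031). No group of these 3 subsets overlapped. TH17 cells differed, with WT at 29.8, 23.8 and 28.1 and Dohh-/- at 15, 42.8 and 36.0 (0.20 ± 0.32, adjusted p = 0.62). The low Dohh-/- TH17 value is replicate 1, which stood apart over all genes.

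Tgfbr2, the receptor that binds the ligand, fell in Odc-/- TH1 (-0.54 ± 0.19, adjusted p = 0.018), TH2 (-0.83 ± 0.21, 0.0014) and TH17 cells (-0.54 ± 0.19, 0.020). TH2 libraries went from 138, 97.9, 113 and 81.1 CPM to 50.1, 65.6 and 66.1, without overlap, and TH1 and TH17 libraries overlapped. The TH1 and TH17 calls were each lost without any of 3 libraries. In TH1 these were WT replicate 1 and Odc-/- replicates 2 and 4 (adjusted p 0.050 to 0.066), and in TH17 WT replicates 1 and 3 and Odc-/- replicate 3 (0.058 to 0.067). In Treg cells the difference was 0.12 (adjusted p = 0.60). In Dohh-/- cells no Tgfbr2 difference passed, at 0.10, -0.29, -0.73 and -0.76 in TH1, TH2, TH17 and Treg cells. The TH1 libraries lay at 62.0, 36.0 and 129.6 CPM, and the highest is replicate 3, which stood apart. Without the libraries that stood apart the TH1 value turned to -0.53 and did not pass (adjusted p = 0.15). The TH17 and Treg values were then -0.93 (adjusted p = 0.015) and -0.76 (adjusted p = 0.021). The Treg value also passed with DESeq2 (-0.79, adjusted p = 0.040) and with only the 2 groups (-0.78, adjusted p = 0.0072).

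The SMADs that carry the signal fell, with the exception of Smad2. Smad3, the partner that binds DNA directly, fell in each of the 8 comparisons. In Odc-/- cells the differences were -0.54 ± 0.18 in TH1 (adjusted p = 0.010), -0.66 ± 0.19 in TH2 (0.0047), -0.98 ± 0.17 in TH17 (8e-05) and -0.72 ± 0.18 in Treg cells (0.0013). TH17 libraries went from 212, 209, 204 and 141 CPM to 135, 81.6, 78.4 and 94.6, and Treg libraries from 47.4, 45.8, 49.1 and 39.9 to 28.5, 28.9, 20.8 and 32.2. WT and Odc-/- overlapped for Smad3 in TH1 cells only, where Odc-/- replicate 1 at 75.5 lay above WT replicate 4 at 64.3. Dohh-/- cells lost more Smad3 than Odc-/- cells in TH17 and Treg cells, by the test between deletions given below. TH17 libraries went from 120.0, 113 and 94.9 CPM to 25.3, 17.4 and 9.67, 6.21-fold lower (-2.63 ± 0.36, adjusted p = 7.6e-06), and Treg libraries from 46.3, 30.4 and 39.8 to 10.7, 10.5 and 5.36, 4.39-fold lower (-2.13 ± 0.37, adjusted p = 7.2e-05). In TH1 cells Smad3 was at 64.0, 51.2 and 55.0 in WT and 18.5, 8.52 and 34.7 in Dohh-/- libraries (-1.45 ± 0.35, adjusted p = 0.0020, and -2.04 without replicate 3 of Dohh-/-), and in TH2 cells at 61.8, 51.8 and 59.2 and at 35.0, 25.4 and 24.6 (-1.02 ± 0.35, adjusted p = 0.021). No Dohh group overlapped its WT group. The TH2 call was lost without Dohh-/- replicate 2 or 3 or WT replicate 1 (adjusted p 0.057 to 0.079) and without a filter on low counts (0.063).

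Smad4, the shared partner of all receptor-activated SMADs, fell in each of the 8 comparisons as well. In Odc-/- cells the differences were -0.51 ± 0.10 in TH1 (adjusted p = 7.1e-05), -0.28 ± 0.10 in TH2 (0.023), -0.50 ± 0.09 in TH17 (0.00014) and -0.68 ± 0.09 in Treg cells (1.2e-06). Treg libraries were at 76.2, 77.1, 78.2 and 71.8 CPM in WT and 48.9, 49.5, 44.3 and 47.2 in Odc-/- cells, a narrow spread in both. In TH2 cells the groups overlapped, and the call was lost without Odc-/- replicate 2 or 3 or WT replicate 1 (adjusted p 0.061 to 0.16) and with only the 2 groups in the fit (0.058). In Dohh-/- cells they were -0.74 ± 0.19 (adjusted p = 0.0027), -0.77 ± 0.19 (0.0024), -1.19 ± 0.19 (3.4e-05) and -0.86 ± 0.19 (0.00072) in TH1, TH2, TH17 and Treg cells. TH17 libraries went from 89.4, 85.9 and 80.8 CPM to 41.1, 42.9 and 28.3, 2.27-fold lower.

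Smad2 did not share these losses. It rose in Odc-/- TH1 (0.46 ± 0.13, adjusted p = 0.0049) and TH2 cells (0.74 ± 0.14, adjusted p = 9.2e-05). TH2 libraries went from 25.7, 25.2, 22.6 and 24.8 CPM to 42.1, 38.2 and 42.8, without overlap, whereas Odc-/- TH1 replicate 1 at 26.3 lay within the WT range of 22.8 to 33.1. With only the 2 groups in the fit the TH1 call was lost (0.44, adjusted p = 0.061). In Odc-/- TH17 and Treg cells the differences were 0.09 and 0.13 and did not pass. Dohh-/- cells had none that passed, at 0.14, 0.30, 0.07 and 0.10.

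Smad7, the feedback inhibitor, fell in the cultures without added TGF-β of Odc-/- cells. TH1 libraries were at 44.4, 27.2, 40.5 and 24.7 CPM in WT and 24.0, 18.8, 15.2 and 13.9 in Odc-/- cells (-0.93 ± 0.20, adjusted p = 0.00041), and TH2 libraries at 15.7, 21.6, 22.3 and 17.2 and at 12.5, 12.1 and 10.1 (-0.73 ± 0.23, adjusted p = 0.0087). The groups did not overlap, although in TH1 cells Odc-/- replicate 1 at 24.0 lay just under WT replicate 4 at 24.7. In TH17 and Treg cells the differences were 0.15 and 0.36 (adjusted p = 0.55 and 0.11). In Dohh-/- cells the deepest Smad7 value was in Treg cells, from 68.7, 48.0 and 71.2 to 28.5, 31.8 and 20.2 CPM (-1.22 ± 0.28, adjusted p = 0.0011). TH2 cells also fell (-0.92 ± 0.29, adjusted p = 0.014), a call lost without Dohh-/- replicate 3 (0.077) or WT replicate 1 (0.073). TH1 (-0.49) and TH17 cells (-0.54) did not pass. Without TH1 replicate 3 of Dohh-/- the TH1 value was -0.98 (adjusted p = 0.0044), and without the libraries that stood apart the TH17 value was -0.73 (adjusted p = 0.016).

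The SKI repressors bind SMAD complexes and recruit corepressors. Ski fell in every subset of Dohh-/- cells, by 1.85- to 2.42-fold. WT and Dohh-/- libraries were at 118, 118 and 94.0 and at 51.2, 31.7 and 66.1 CPM in TH1 (-1.14 ± 0.19, adjusted p = 5.7e-05), and at 133, 120.4 and 125 and at 48.7, 60.9 and 47.0 in TH2 cells (-1.27 ± 0.19, adjusted p = 2.2e-05). In TH17 cells they were at 198, 203 and 175 and at 107, 116 and 88.1 (-0.89 ± 0.19, adjusted p = 0.00059), and in Treg cells at 234, 208 and 248 and at 101, 112 and 116 (-1.07 ± 0.19, adjusted p = 7.9e-05). No WT and Dohh-/- group overlapped. In Odc-/- cells Ski rose in Treg cells, from 187, 189, 178 and 219.7 to 190.1, 329.8, 226 and 345 CPM (0.50 ± 0.16, adjusted p = 0.0080), where Odc-/- replicates 2 and 4 were again the high ones and the call was lost without replicate 4 (0.36, adjusted p = 0.054). In the other subsets the Odc-/- differences for Ski were 0.05, 0.15 and -0.32 in TH1, TH2 and TH17 cells, and none passed. The TH17 value passed with the replicate block (-0.33, adjusted p = 0.027) and with only the 2 groups in the fit (-0.34, adjusted p = 0.016), and with only the 2 groups the Treg rise did not (0.44, adjusted p = 0.055).

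Skil fell in Dohh-/- Treg cells, from 177, 127 and 191 to 58.1, 69.9 and 72.0 CPM (-1.31 ± 0.32, adjusted p = 0.0019). The other Skil differences did not pass with all libraries, and 4 of them did under other settings. In Dohh-/- TH1 cells the value of 0.07 rested on replicate 3, at 59.5 CPM beside 23.3 and 13.1 in the other Dohh-/- and 30.1 to 31.4 in the WT libraries. Without it the difference was -0.73 ± 0.24 (adjusted p = 0.013). The Dohh-/- TH2 difference of -0.68 passed without the libraries that stood apart (adjusted p = 0.011) and with only the 2 groups in the fit (0.015). The Odc-/- TH17 difference of -0.37 passed with RLE size factors (adjusted p = 0.040), DESeq2 (0.036) and the replicate block (0.039). Odc-/- Treg cells again formed 2 levels, at 176 and 178 CPM in replicates 1 and 3 and 290.3 and 291 in replicates 2 and 4, beside 255 to 332 in WT, with a difference of -0.32 (adjusted p = 0.087) that passed with RLE size factors (-0.39, adjusted p = 0.038) and DESeq2 (-0.39, 0.036).

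**Figure D4:**
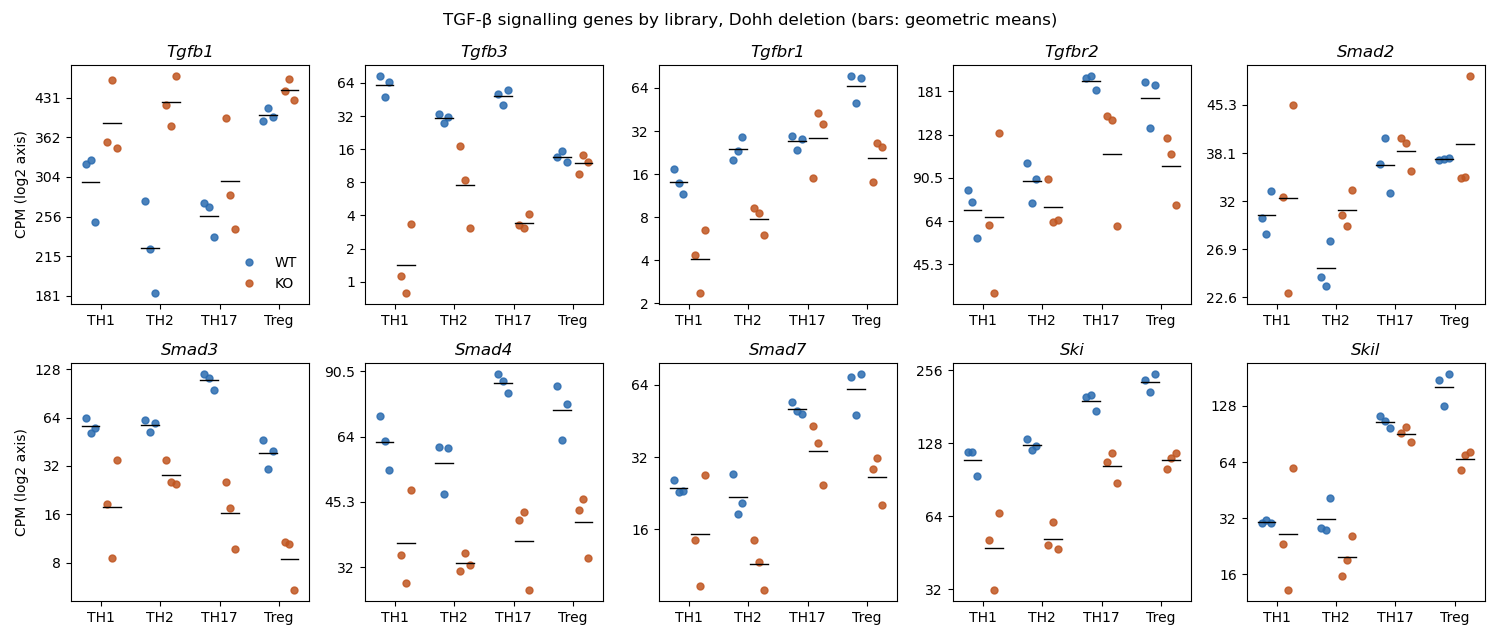
Level of each of the 10 genes in every library of the Dohh table, in CPM on a log2 axis, by subset, with WT libraries in blue, Dohh-/- libraries in orange and bars at the geometric means. Ski and Smad3 of Dohh-/- cells lie below WT in all 4 subsets, and Skil of Dohh-/- TH1 cells spreads from 13.1 to 59.5 CPM.

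An interaction test asked whether the effect of a deletion depended on the subset. For Odc 6 genes passed (34.8% of all genes), with F values over 3 terms of 10.3 for Tgfb1, 9.87 for Smad7, 5.10 for Tgfbr1, 5.00 for Smad2, 4.58 for Ski and 4.30 for Tgfbr2. Tgfb1 and Smad7 passed whichever single library was left out, whereas the calls for Tgfbr1, Smad2, Ski and Tgfbr2 were lost without single libraries (adjusted p up to 0.057, 0.063, 0.079 and 0.10). The Tgfbr1 and Tgfbr2 calls were also lost without a filter on low counts (adjusted p = 0.063 and 0.11), and that of Tgfbr2 with RLE size factors (0.058). Smad3 and Smad4, the genes that fell in every subset, did not pass (adjusted p = 0.47 and 0.13), but both did with the donor block (0.026 and 0.020), Smad4 with the replicate block (0.048) and Smad3 without the libraries that stood apart (0.017). For Dohh 2 genes passed (17.9% of all genes), Tgfb3 (F = 27.3, adjusted p = 2.5e-05), whose values ran from -5.10 in TH1 to -0.19 in Treg cells, and Tgfbr1 (F = 7.67, adjusted p = 0.012), which was lower in all subsets but TH17. With DESeq2 Smad3 (0.031) and Skil (0.047) passed as well, and without the libraries that stood apart Tgfb1 (adjusted p = 0.018), Smad3 (0.0051) and Skil (0.044) did. In the Odc table Tgfb3 had an adjusted p of 0.27 with all libraries, of 0.0025 without Odc-/- TH1 replicate 1, of 4.4e-05 without all that stood apart and of 0.045 with the donor block.

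In deficient cells, too, the receptor kinase, Smad7 and the repressors were higher in the TGF-β cultures. Tgfbr1 differed between cultures by 3.15 ± 0.20 in Odc-/- and 2.12 ± 0.25 in Dohh-/- cells, Skil by 1.58 and 1.61, Ski by 1.23 and 1.06 and Smad7 by 1.74 and 1.11, all past the test. Across Odc-/- cultures 7 genes were higher and none lower, where 24.8% and 20.6% of all genes were (of the 7, Smad4 at 0.19 lost its call without any of 5 libraries, with adjusted p up to 0.11, and with RLE size factors, no filter or DESeq2, 0.074 to 0.14), and in Dohh-/- cells 4 were higher and 1 lower, where 16% and 15.2% were. The lower one was Smad3 (-0.96, adjusted p = 0.0066). With Treg cells alone for the TGF-β cultures, Smad3 was lower in Odc-/- cells too (-1.03, adjusted p = 1e-05). On that contrast Smad4 did not pass in Odc-/- cells (0.14, adjusted p = 0.2), and Tgfb3 was higher in Dohh-/- cells (1.54, 0.0033). Without the libraries that stood apart Tgfb3 (1.08, adjusted p = 0.025), Tgfbr2 (0.78, 0.0069) and Smad2 (0.40, 0.014) were higher in these Dohh-/- cultures too. Tested directly, the culture contrast differed between Odc-/- and WT for 4 genes (32.1% of all genes), with differences of 0.44 for Tgfb1 (adjusted p = 0.00067), 0.96 for Tgfbr1 (0.0063), 1.08 for Smad7 (0.00024) and -0.49 for Smad2 (0.0063). Smad7 and Tgfbr1 thus had a steeper step between cultures in Odc-/- cells, while the step of Smad2 was 0.09 in Odc-/- and 0.58 in WT cells. With the donor block Tgfbr2 (0.45, adjusted p = 0.013), Smad3 (-0.32, 0.017) and Smad4 (-0.21, 0.031) differed as well, and Tgfbr2 also did without the libraries that stood apart (0.53, 0.019). Between Dohh-/- and WT it differed for 2 genes (11.3% of all genes), by 1.39 for Tgfb3 (adjusted p = 0.030) and -1.15 for Smad3 (adjusted p = 0.036). Both Dohh calls were lost when single libraries were left out, with adjusted p up to 0.065 and 0.068, and without a filter on low counts (0.082 and 0.13). Without the libraries that stood apart they held, and Tgfb1 (-0.58, adjusted p = 0.015) and Tgfbr1 (1.26, 0.0025) differed as well. In the Odc table Tgfb3 passed without Odc-/- TH1 replicate 1 (2.78, adjusted p = 0.0035) and without all that stood apart (2.29, adjusted p = 0.0015).

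The 2 deletions were compared in 1 fit of both tables with 14850 genes, as the Dohh effect minus the Odc effect within each subset. Each effect was taken against its own WT libraries, since the tables were counted separately. In TH1 cells 2 of the 10 genes differed (18.5% of all genes), Tgfbr1 by -1.66 ± 0.46 (adjusted p = 0.0090) and Ski by -1.17 ± 0.24 (0.00063). In TH2 cells 2 differed (15.7%), Ski by -1.44 ± 0.25 (6.2e-05) and Tgfb1 by 0.61 ± 0.19 (0.022). In TH17 cells 2 differed (21.4%), Smad3 by -1.60 ± 0.37 (0.0015) and Smad4 by -0.63 ± 0.20 (0.017). In Treg cells 5 differed (26.2%), Tgfbr1 by -2.22 ± 0.40 (3.5e-05), Ski by -1.53 ± 0.24 (4e-06), Smad7 by -1.54 ± 0.33 (0.00044), Smad3 by -1.37 ± 0.39 (0.0065) and Skil by -0.95 ± 0.34 (0.033). Apart from Tgfb1 in TH2 cells, each of these was lower with the Dohh than with the Odc deletion. With all libraries the differences for Tgfb3 did not pass, at -1.72 ± 1.23, 2.44 ± 1.17, -0.06 ± 1.15 and 1.32 ± 1.08 in TH1, TH2, TH17 and Treg cells, wide errors that leave large differences possible. Without the libraries that stood apart the Tgfb3 loss was smaller with the Dohh than with the Odc deletion in TH2 (2.64 ± 0.59, adjusted p = 0.0014) and Treg cells (1.72 ± 0.55, 0.015). Leaving out those libraries, Tgfb1 (0.60), Smad2 (-0.73) and Smad3 (-1.19) differed in TH1 cells too (adjusted p = 0.0086, 0.0083 and 0.0033). In TH17 cells Tgfb1 (-0.53), Smad7 (-0.85) and Ski (-0.62) then differed (adjusted p = 0.021, 0.046 and 0.046), and in Treg cells Tgfb1 (-0.45, adjusted p = 0.027). With all libraries the Ski difference in TH17 cells was -0.51 ± 0.24 (adjusted p = 0.12). The calls for Tgfb1 in TH2, Smad4 in TH17 and Skil in Treg cells were lost when single libraries were left out (adjusted p up to 0.10, 0.097 and 0.094), and those for Tgfb1 and Skil also without a filter on low counts (0.079 and 0.097). Tgfb1 in TH1 cells passed with RLE size factors, DESeq2 or the replicate block (0.46 to 0.50, adjusted p 0.026 to 0.043), and in Treg cells with the replicate block (-0.42, adjusted p = 0.047). The tables also differ in the levels of the markers of other cells given above, and their part in these differences was not tested.

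**Figure D5:**
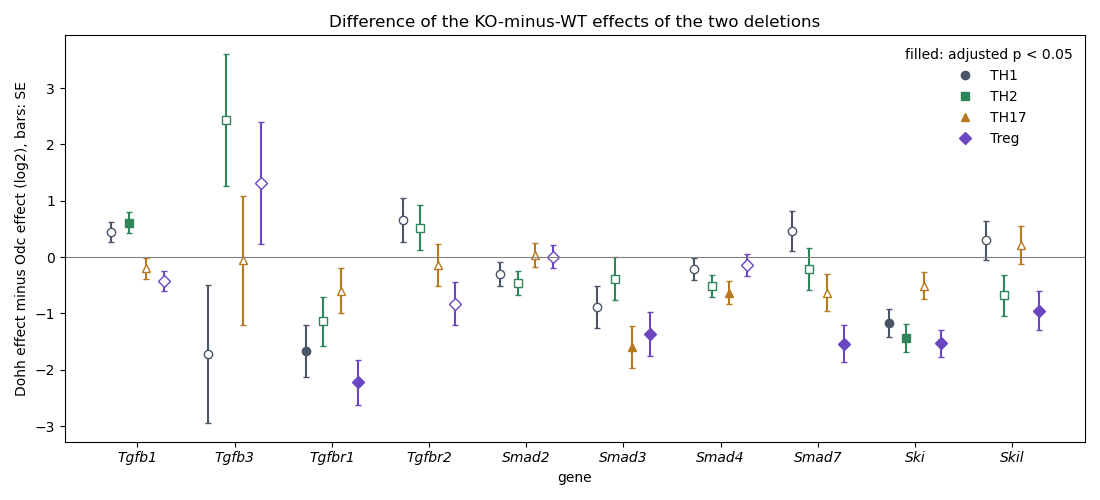
Difference between the effects of the deletions (Dohh effect minus Odc effect, log2) for each of the 10 genes in each subset, with bars of ± 1 SE and filled points for an adjusted p under 0.05. In Treg cells the 5 filled points lie between -2.22 for Tgfbr1 and -0.95 for Skil.

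Beyond the 10 genes, 42 other genes of the pathway were listed, of which 39 were tested in each table. After Odc deletion 6 rose and 15 fell in TH1 (29.1% and 27.7% of all genes), 8 and 18 in TH2 (29.9% and 29.3%), 9 and 15 in TH17 (25.6% and 22.2%) and 12 and 11 in Treg cells (32.9% and 26.9%). After Dohh deletion the counts were 5 and 12 (25.9% and 24.1%), 7 and 18 (23.8% and 21.5%), 7 and 15 (27.0% and 24.9%), and 4 and 18 (28.4% and 25.0%) in the same order. The genes described here were named because they changed over 2-fold in 1 direction in at least 3 subsets of a table. Lrrc32, Ltbp3 and Nrros encode proteins that hold latent TGF-β outside the cell. Lrrc32, which encodes GARP, the protein that docks latent TGF-β on activated Treg cells, fell by 2.29, 1.35 and 1.64 in Odc-/- TH1, TH2 and TH17 cells and did not pass in Treg cells (-0.44). Under Dohh deletion it fell in all 4 (-5.25, -1.55, -4.76 and -1.32). Ltbp3, a latent TGF-β binding protein, fell in every Odc-/- subset (-3.26, -4.07, -2.73 and -2.91). Ltbp2, a matrix protein of the same family that is known not to bind latent TGF-β, fell in Dohh-/- TH1, TH2 and Treg cells (-5.39, -3.26 and -2.22) and rose in TH17 cells (3.02). Acvrl1, the type I receptor ALK1, fell in all 8 comparisons, with log2 differences of -3.44, -4.09, -2.60 and -3.98 with Odc and -3.07, -0.68, -4.88 and -3.66 with Dohh deletion.

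Other genes of the list rose. Thbs1, whose product thrombospondin releases active TGF-β, rose in all Odc-/- subsets (3.46, 2.76, 2.61 and 3.75) and in Dohh-/- TH1, TH2 and TH17 cells (3.58, 6.52 and 3.81). It did not pass in Dohh-/- Treg cells (0.53, adjusted p = 0.4). Nrros, which encodes a docking protein of latent TGF-β on myeloid cells, rose in every Dohh-/- subset (1.69, 1.58, 1.80 and 1.33). Platelets and myeloid cells also make Thbs1 or Nrros, although the negative selection before culture is meant to remove them. The summed levels of their markers in Dohh-/- libraries are those given above. In the Odc table myeloid markers summed to 4.39 to 342.5 CPM in Odc-/- and 0.729 to 36.2 in WT libraries, and platelet markers to 6.20 to 42.6 and 2.21 to 10.3, with Gp1bb and Treml1 at 0 in WT. Their part in these rises was not tested. Pmepa1, an inhibitor that sequesters receptor-activated SMADs, rose in every Odc-/- subset (2.54, 1.52, 1.18 and 0.86). Among the remaining receptors and regulators, Bmpr1a fell in every Odc-/- subset (-1.49, -1.27, -0.80 and -1.05), and Acvr2b fell in all but TH17 cells (-2.21, -2.97, -0.65 and -2.20, adjusted p = 0.43 in TH17). With Dohh deletion Bmpr2 fell in all but TH17 cells (-1.45, -1.26, -0.50 and -1.58, adjusted p = 0.14 in TH17), and Rnf111, a ubiquitin ligase for SMAD7 and the SKI proteins, fell in all 4 (-1.01, -1.12, -0.92 and -1.18).

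Genes that respond to TGF-β in T cells were followed beside the signalling genes, with 10 known to rise and 6 known to fall. In WT cells of the TGF-β cultures 9 of the 10 were higher and 1 lower in the Odc table (28.8% and 28.3% of all genes), and 8 and 1 in the Dohh table (17.1% and 18.7%), and of the 6 others 5 and 6 were lower. With a deletion, of the 10 genes in TH17 cells 3 rose and 5 fell without Odc (25.6% and 22.2% of all genes) and 3 rose and 6 fell without Dohh (27.0% and 24.9%). In Treg cells 4 rose and 2 fell without Odc (32.9% and 26.9%) and 5 rose and 4 fell without Dohh (28.4% and 25.0%). In the cultures without added TGF-β, 1 rose and 3 fell in Odc-/- TH1 (29.1% and 27.7% of all genes), none rose and 6 fell in Odc-/- TH2 (29.9% and 29.3%), 1 rose and 5 fell in Dohh-/- TH1 (25.9% and 24.1%), and 2 rose and 2 fell in Dohh-/- TH2 cells (23.8% and 21.5%). Of the 6 others, 4, 5, 5 and 5 rose in Odc-/- TH1, TH2, TH17 and Treg cells, and 5, 5, 6 and 5 in Dohh-/- cells, where 29.1%, 29.9%, 25.6% and 32.9% of all genes rose with Odc and 25.9%, 23.8%, 27.0% and 28.4% with Dohh deletion. In TH2 and Treg cells of both, 1 of the 6 fell. Itgae, the integrin chain CD103 and a direct SMAD3 target, rose with the TGF-β cultures in WT cells (2.61 and 3.37) and by more in deficient cells (6.27 and 6.55), and the differences of 3.66 (adjusted p = 2.7e-07) and 3.18 (adjusted p = 5.6e-06) passed. Itgae was higher in Odc-/- TH17 and Treg cells (1.79 and 3.27) and in Dohh-/- TH17 and Treg cells (2.74 and 1.89), in which Smad3 and Smad4 were lower. The summed CD8 T and NK cell markers were higher in these cells too, and their part in the rise of Itgae was not tested. Itgae fell in Odc-/- TH2 (-1.79, adjusted p = 0.0018) and Dohh-/- TH1 cells (-1.16, adjusted p = 0.040). Foxp3, the master factor of Treg cells, fell in Dohh-/- Treg cells (-2.44, adjusted p = 0.00020) and was at -0.23 (adjusted p = 0.50) in Odc-/- Treg cells. In TH17 cells Foxp3 rose without Odc (2.62) and fell without Dohh (-2.14, adjusted p = 0.0011), and the effects differed by -4.68 (adjusted p = 6.2e-08). Odc-/- TH17 replicates 1 to 4 lay at 44.1, 165.0, 56.7 and 160.0 CPM, all above WT at 13.1 to 25.9. Foxp3 also fell in Dohh-/- TH1 cells (-2.74, adjusted p = 0.0017), where replicate 3, which stood apart, held 1 count. Of the genes that TGF-β restrains, Tbx21, the TH1 factor, rose in Odc-/- TH2, TH17 and Treg cells (2.00, 2.18 and 1.95; 0.41 in TH1, adjusted p = 0.24) and in Dohh-/- TH1, TH2, TH17 and Treg cells (2.08, 3.02, 4.61 and 3.88). Gata3, the TH2 factor, fell in TH2 (-0.87 with Odc and -0.57 with Dohh deletion) and Treg cells of both (-0.64 and -2.12). In TH17 cells it rose without Dohh (0.57, adjusted p = 0.039) and was at 0.01 (adjusted p = 0.97) without Odc, and in TH1 cells its values of 0.35 and -0.38 did not pass.

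Tgfb3 had the widest range of group means among the 10 genes, 5.26 log2 units in the Odc and 5.20 in the Dohh table. Over the 31 libraries of the Odc table the genes whose log2 CPM followed it most closely included Ogt (Pearson r = 0.930) and Matk (0.927). Over the 24 libraries of the Dohh table they were Trip10 (0.933), Tyro3 (0.903) and 4931428F04Rik (0.899). The libraries share genotype, subset and depth, so these values describe likeness of pattern only.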

How the data were processed

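RNA was sequenced with a kit that marks strand. Per the labels and the study's methods, the authors processed the libraries with deepTools, STAR for trimming and mapping and featureCounts, on build mm10 by the submitters' notes, which also name DESeq2. Tool versions and the strand setting are not given in the sources used here. The deposited values are raw read counts per gene in 2 tables, 1 column per library, with no normalization and 0 columns without a sample. Identifiers were matched to GENCODE M21 (GRCm38), which gave a symbol to 47224 of 47937.

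Counts were tested with edgeR 4.0.16 (R 4.3.3; filterByExpr, TMM, robust quasi-likelihood fit) with 1 mean for each of 8 groups per table, or 16 in the joint fit, and p-values were adjusted by Benjamini-Hochberg over all genes tested. A gene rose or fell at an adjusted p under 0.05, and over 2-fold where stated. Values are CPM of TMM-scaled libraries, and a count of 0 in a library allows up to 3 counts, which covers counting error only. Nothing in the labels says that replicates came from separate mice, so p-values measure the spread between these libraries. Deviations of same-number WT and deficient libraries correlated between -0.0858 and 0.196, so these were not treated as pairs. Across subsets, same-number libraries of 1 genotype correlated at 0.206 to 0.576 in Odc WT, 0.0339 to 0.501 in Odc-/-, 0.00521 to 0.314 in Dohh WT and -0.265 to 0.644 in Dohh-/- cells. The labels do not say that a number marks 1 mouse, and a donor block is given where it changes a call. Alternatives were RLE size factors, no filter, DESeq2 1.42.0, only the 2 groups compared, replicate blocks, Treg alone and leaving out each library. A fit without the libraries that stand apart was chosen after seeing the data. It leaves out libraries that lie toward the other genotype, which tends to widen differences between genotypes. Scripts were tested on simulated data. The genes and lists were chosen with earlier results of these data known. Named genes are all 10 by name, the pathway genes over 2-fold in 1 direction in at least 3 subsets (at most 8 per table), 5 response genes and the 3 genes most like the widest-ranging gene. Some genes that this rule names are not reported here. Promoter windows are from RefSeq.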

Additional observations from a re-analysis of the deposited data

Results flagged for a closer look

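Among 70 groups of 4 libraries, 7 held 1 library far from its other members, where chance gives about 1 in 20. Tgfb3 supplied 3 of them, Odc-/- TH1 replicate 1 at 70.2 CPM (the others at 0.397 to 3.52), Odc WT TH17 replicate 4 at 33.0 (the others at 93.0 to 96.5) and Odc WT TH2 replicate 4 at 62.0 (the others at 105.4 to 110.0). Odc WT TH17 replicate 4 stood out again for Smad3 at 141.3 CPM (the others at 204.1 to 211.7) and for Tgfb1 at 244.0 (183.3 to 190.9). Each of these 5 values lies toward the other genotype. Ski stood out in Odc-/- TH17 replicate 1 at 172.4 CPM (226.2 to 234.5) and Smad7 in Odc WT TH17 replicate 3 at 44.4 (37.2 to 38.3).

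The effect of Odc deletion differed between the TGF-β and the other cultures for Tgfb1 (0.44), Tgfbr1 (0.96), Smad2 (-0.49) and Smad7 (1.08), and that of Dohh deletion for Tgfb3 (1.39) and Smad3 (-1.15), as log2 differences by edgeR. Over the 4 subsets the interaction with genotype passed in the Odc table for Tgfb1 (F = 10.3), Tgfbr1 (5.1), Tgfbr2 (4.3), Smad2 (5.0), Smad7 (9.87) and Ski (4.58), and in the Dohh table for Tgfb3 (27.3) and Tgfbr1 (7.67). The Dohh effect minus the Odc effect passed in TH1 cells for Tgfbr1 (-1.66) and Ski (-1.17), in TH2 cells for Tgfb1 (0.61) and Ski (-1.44), and in TH17 cells for Smad3 (-1.60) and Smad4 (-0.63). In Treg cells it passed for Tgfbr1 (-2.22), Smad3 (-1.37), Smad7 (-1.54), Ski (-1.53) and Skil (-0.95).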

How the results depend on the processing

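Over 200 results of single genes and comparisons, RLE size factors left 195 on the same side of the threshold, DESeq2 190 and no low-count filter 188. None of these changed a sign of a called value. Counts of members over 2-fold in Odc-/- cells moved in TH17 from 1 to 2 with RLE size factors, no filter or DESeq2. Members past the adjusted p in Odc-/- Treg cells went from 5 to 3 with only the 2 groups in the fit. With no filter, the Dohh culture contrast by genotype went from 2 to 0 genes by edgeR (adjusted p = 0.082 for Tgfb3 and 0.13 for Smad3) and the TH2 difference between deletions from 2 to 1. With DESeq2 the Dohh genotype by subset count went from 2 to 4. The replicate block moved 6 of the 200 results, each to passing, and no count moved by over 1.5 times (8 genes in Odc-/- TH17 cells for 6 without it, and 3 for 2 in the TH1 difference between deletions). A donor replicate block moved the Odc culture contrast by genotype from 4 to 7 genes and 7 of 80 results in all.

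Without the libraries that stand apart, the count over 2-fold became 2 in Odc-/- TH1, 3 in TH17 and 1 in Treg cells. Counts past the adjusted p became 8 in Dohh-/- TH1 cells, 8 for the Dohh-/- culture contrast, 4 for its difference by genotype, 5 for the Dohh genotype by subset test, and 5 each for the TH1 and TH17 differences between deletions. Skil in Dohh-/- TH1 cells turned from 0.07 to -0.73. Leaving out each library in turn gave 1 to 2 genes over 2-fold in Odc-/- TH1 and 1 to 3 in TH17 cells. It gave 3 to 7 for the Odc genotype by subset test, 5 to 8 for the Dohh-/- culture contrast, 0 to 4 for its difference by genotype, 2 to 4 for the Dohh genotype by subset test, and 2 to 5, 1 to 3 and 1 to 2 for the TH1, TH2 and TH17 differences between deletions. Skil in Dohh-/- TH1 cells ranged from -0.73 to 0.43. With Treg cells alone for the TGF-β cultures, Smad3 in Odc WT cells turned from 0.13 to -0.91. Except where a library was left out or fewer genes were tested, the cause was not tested. Depth limits Tgfb3 in deficient TH1 cells, where 1 library held 3 counts.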

Other observations

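In Odc-/- cells of the TGF-β cultures, several members split by replicate number, with numbers 2 and 4 high and 1 and 3 low. In Treg cells replicates 2 and 4 held 194 and 194 CPM of Tgfbr2 beside 146 and 106, and 64.3 and 65.8 of Smad7 beside 41.0 and 40.0, in addition to the values of Tgfbr1, Ski and Skil given above. In TH17 cells the same held for Tgfbr1 and for Skil (201 and 186 beside 136 and 118). Tgfb1 in Treg cells had no such split (379.5 and 426 beside 446 and 381), nor had Smad4 (49.5 and 47.2 beside 48.9 and 44.3). The labels give these numbers no further meaning, the pattern was noticed in the values, and no test was made of it.

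In the same Odc table, WT replicate 4 had the lowest Tgfb3, Smad3 and Tgfbr2 of its group in each of the 4 subsets, and the highest Tgfb1 in TH2, TH17 and Treg cells. Its Tgfb3 was 74.9 CPM in TH1, 62.0 in TH2, 33.0 in TH17 and 5.48 in Treg cells.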
